A study of Mus musculus with 20 samples.

Results

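Claudins and occludin are the membrane proteins of the tight junction, and transcripts of 10 of these genes were followed in mouse intestinal tissue: Cldn1, Cldn2, Cldn3, Cldn4, Cldn7, Cldn8, Cldn15, Cldn18, Cldn23 and Ocln. They were chosen by name. Every probe whose gene name on the array was one of the 10 was used, which gave 12 probes, 2 each for Cldn2 and Cldn7 and 1 for each other gene, among 25043 named genes. Cldn8 was not well above background on any of the 20 arrays, so 9 of the 10 genes were tested in each comparison.

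Each of the 20 arrays held RNA of intestinal tissue of C57BL6/j mice, hybridised to a 1-colour Agilent array. An array was taken as 1 mouse, which the labels do not state. Cre control mice (6 arrays) carried VillinCreER/0, a tamoxifen-inducible Cre recombinase that the Villin promoter drives in the gut epithelium. BRAFV600E mice (6 arrays) carried VillinCreER/0 and BrafV600E-LSL/+, a mutant kinase allele that stays silent until Cre removes a stop cassette. Both groups were 8 to 12 weeks old, with as many males as females, and received 3 daily doses of 2 mg tamoxifen, with harvest 3 days after the last dose. This comparison asks what the mutant kinase changes in the gut within days. MEKi mice (4 arrays) received 3 daily injections of the MEK inhibitor PD184352 and Vehicle mice (4 arrays) its carrier, 10% DMSO and 10% Cremophor EL, after 2 tamoxifen injections of 1 mg in both groups. Their genotype is not in the labels and was taken as VillinCreER/0 with BrafV600E-LSL/+ from the study's description, and the study's general methods give 8 to 12 weeks as the age at induction. This comparison asks which transcripts need MEK, the kinase that BRAF activates. The gut segment was not stated, and markers of muscle and lymphoid cells were measured beside those of epithelium, so the values are of mixed tissue.

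Tight junctions seal the space between neighbouring epithelial cells. Claudins span the membrane and pair with claudins of the next cell, and the set that a cell makes decides which ions pass between cells. Claudin-2 and claudin-15 form channels for sodium and other small cations, and in the small intestine claudin-2 lies mainly in the crypts. The other claudins listed here are mostly described as sealing claudins, with claudin-18 known from stomach and lung and claudin-8 from the distal colon. Occludin is a tight junction protein of another family that binds the scaffold protein ZO-1.

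The probe sequences are shown for the members with the largest differences, because the probes of Cldn2 lay in different parts of one transcript and gave unequal values. The brightest Cldn2 probe started at base 2382 of the transcript (chrX:136345244-136345303, build mm9) and had stop codons in all 3 forward frames. The second Cldn2 probe started at base 570 (chrX:136343432-136343491, mm9) and had 1 frame without a stop. They lay 1812 bases apart on both the chromosome and the transcript, so no intron separates them. The second probe matches the coding part for the first extracellular loop of claudin-2, the part that lines the channel. The Cldn4 probe (chr5:135422135-135422194, mm9) started at base 610 and lies in the coding part for the second extracellular loop of claudin-4. The probes are printed 5′ to 3′ in lower case, the brightest Cldn2 probe by its first 30 bases and the other probes whole.
Cldn2 brightest probe: agtgtggaacatctgtgaccaaggtgttgt
Cldn2 second probe: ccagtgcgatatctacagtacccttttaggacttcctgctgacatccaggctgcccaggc
Cldn4 probe: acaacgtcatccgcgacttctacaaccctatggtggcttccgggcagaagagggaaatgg

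The 250 bases before the transcription start are shown for the same genes, from RefSeq on build GRCm38.p6, read in the direction of the gene. Capitals mark matches on either strand to TGANTCA (the AP-1 motif), CCGGAA (an ETS motif) or TTTATG (a CDX motif). AP-1 and ETS factors are known to act downstream of ERK, and CDX factors to set intestinal identity. The windows are chrX:139800558-139800807 on the plus strand for Cldn2 and chr5:134946935-134947184 on the minus strand for Cldn4.
Cldn2 promoter: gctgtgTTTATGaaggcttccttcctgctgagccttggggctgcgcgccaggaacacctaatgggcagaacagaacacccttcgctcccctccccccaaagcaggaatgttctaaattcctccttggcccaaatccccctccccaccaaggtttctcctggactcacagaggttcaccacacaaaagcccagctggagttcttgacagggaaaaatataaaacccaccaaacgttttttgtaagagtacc
Cldn4 promoter: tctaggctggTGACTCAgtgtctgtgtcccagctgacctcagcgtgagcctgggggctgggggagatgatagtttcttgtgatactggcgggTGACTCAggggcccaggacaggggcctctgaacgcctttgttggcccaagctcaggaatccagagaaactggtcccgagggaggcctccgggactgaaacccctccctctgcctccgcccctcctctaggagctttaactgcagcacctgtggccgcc

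The Cldn4 window held 2 AP-1 matches, which began 240 and 158 bases before the start. Of 32851 windows of the same length, 6.75% held at least 1 AP-1 match and 0.338% held 2 or more. Cldn15 held 1 AP-1 match, 214 bases before its start. The Cldn2 window held 1 CDX match, 244 bases before the start, a motif present in 10.8% of all windows. ETS matches, in 12.0% of all windows, were found before both Cldn7 starts and 1 of the 2 Ocln starts. Windows were at hand for 8 of the 10 members, and the motifs were picked after the expression values were known. A match is a description of letters and not of binding.

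Between 60.8% and 76.8% of spots per array were well above background, and precision is limited by how many arrays there are. The spike-in slope, a quality mark of each array, was in range on 3 of 6 Cre control and 2 of 6 BRAFV600E arrays. Cre control replicates 2, 3 and 5 were out of range (0.77, 0.84 and 0.76), as were BRAFV600E replicates 3 to 6, with a recorded slope of 0. All MEKi and Vehicle arrays were in range. The label of intestinal tissue was checked against 7 epithelial markers, among them Vil1, Cdx2 and Krt20, and none of them was below background throughout any group. Of 10 genes known to follow MAPK output, 9 were called higher in BRAFV600E than in Cre control tissue and 6 were called lower in MEKi than in Vehicle tissue. The first comparison ran over 2 slides: slide 1 held all 6 Cre control arrays and BRAFV600E replicates 1 and 2, and slide 2 held BRAFV600E replicates 3 to 6. The MEKi and Vehicle arrays shared slide 3 but each group filled 1 row of it, and the row effect cannot be told apart from the treatment. A pair of arrays stood apart by markers of other gut regions. Levels of a marker list are given as the sum over its genes in units of the array's 75th percentile. Vehicle replicate 2 had a summed level of 1509 for 6 exocrine pancreas markers, against 0.310 to 0.338 in the other Vehicle arrays. BRAFV600E replicate 2 had 76.2 for 7 stomach markers, against 2.05 to 5.21 in the other BRAFV600E arrays. The same arrays led in 4 proximal small intestine markers (Gata4, Onecut2, Cybrd1 and Slc40a1), with 163 and 155 against 7.66 to 24.6 on the other 18 arrays.

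BRAFV600E tissue had more Cldn2 and Cldn4 transcript than Cre control tissue, though Cldn4 was not called when slide was blocked (limma adjusted p = 0.120), while the main enterocyte claudins Cldn3, Cldn7 and Cldn15 did not pass the test. A gene was called at an adjusted p under 0.05 in limma, fitted over all 19037 genes tested. Of the 9 members tested, 2 were called higher, where 6.18% of all genes were called higher. None of the 9 was called lower by limma, where 6.26% of all genes were. By unadjusted limma p, 3 of the 9 lay under 0.05, ranked 517, 751 and 2664 of 19037 genes. Ocln, just over that line at 0.0566, ranked 6019. Many genes of the array thus lay under 0.05, and the count is not read as a result about the members. The median log2 fold change over the 9 members was 0.37, against -0.02 over all genes tested. Levels below are log2 signals relative to the 75th percentile of the array, and a difference of 1 is a doubling. In whole tissue, fewer cells of a type and less RNA per cell cannot be told apart.

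**Figure D1:**
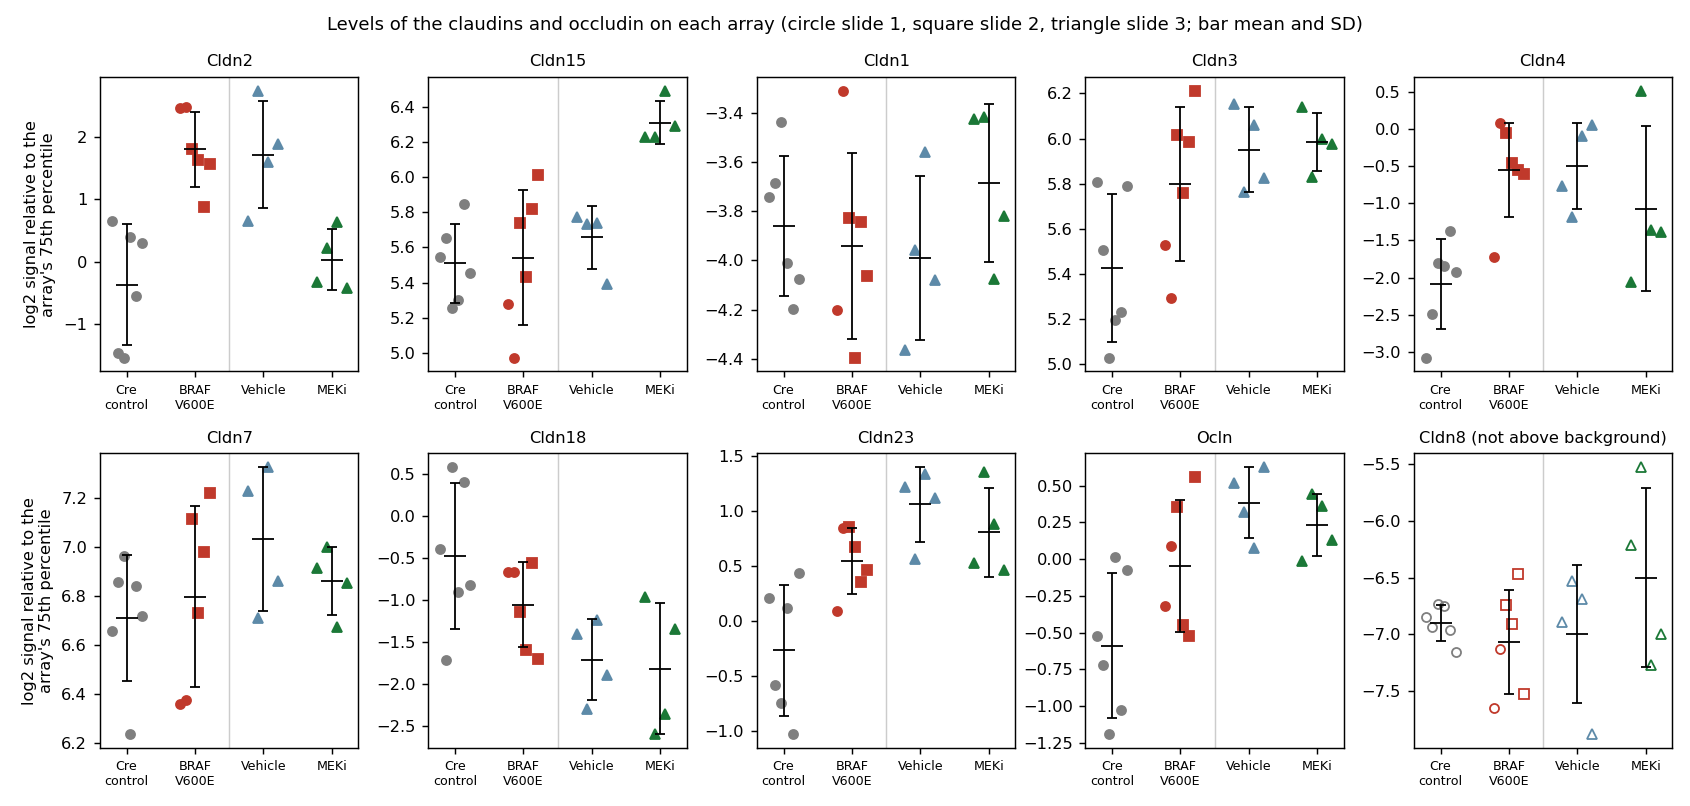
Log2 signal of each gene's brightest probe relative to the array's 75th percentile (y axis) on each array of the 4 groups (x axis). Points are arrays, their shape the slide, and bars the mean and SD of 6 or 4 arrays. All 6 BRAFV600E arrays lie above all 6 Cre control arrays for Cldn2, and all 4 MEKi arrays above all 4 Vehicle arrays for Cldn15. Open points for Cldn8 mark values not well above background.

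Cldn2, the crypt cation channel, showed the largest difference of the 9 tested members. Its level ran from -1.54 to 0.65 in Cre control tissue (median -0.13, 6 arrays) and from 0.88 to 2.47 in BRAFV600E tissue (median 1.72, 6 arrays). The groups did not overlap, which was so for 1 of the 9 members and for 7.36% of all genes tested. The mean level was -0.37 ± 0.97 against 1.80 ± 0.61 (SD over 6 arrays). Cldn2 thus rose 4.50-fold, a log2 difference of 2.17 (SE 0.42, limma adjusted p = 0.00774). BRAFV600E replicates 1 and 2 were the highest, at 2.46 and 2.47, and the arrays of slide 2 lay at 1.81, 1.63, 0.88 and 1.56. Cre control replicates 2, 3 and 5, whose spike-in slope was out of range, were the lowest of their group, at -1.46, -1.54 and -0.55. On the slide 1 arrays with the slope in range, 3 Cre control and 2 BRAFV600E, Cldn2 was not called (limma adjusted p = 0.0566). The part of the slope in the difference was not tested further.

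Slide and the summed markers of gut region also differed between the groups, and their part in the Cldn2 result was not tested beyond the values that follow. Blocking on slide gave Cldn2 a log2 difference of 2.84 (SE 0.56, limma adjusted p = 0.0115), and slide 1 fitted alone gave the same size (limma adjusted p = 0.0471). That size compares arrays of slide 1 alone, where BRAFV600E is represented by replicates 1 and 2. These replicates had the highest proximal marker sums of their group, 24.6 and 155, and the lowest distal sums (Slc10a2, Fabp6, Fgf15 and Slc51b), 2.99 and 1.73. Cre control arrays had proximal sums of 7.66 to 14.7 and distal sums of 7.73 to 10.8. Without replicates 1 and 2, when slide and group cannot be told apart, the value was 1.84 (limma adjusted p = 0.0388). All 6 BRAFV600E arrays had distal sums below all Cre control arrays (1.73 to 7.47), and 5 of the 6 had proximal sums above all of them. The exception, replicate 3, had a proximal sum of 14.0, a distal sum of 7.47 and a Cldn2 level of 1.81. BRAFV600E replicates 4, 5 and 6 had proximal sums of 16.2, 19.6 and 14.9 and Cldn2 levels of 1.63, 0.88 and 1.56. Of the single marker genes, limma called 1 of 4 proximal ones higher and none of the 4 distal ones.

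**Figure D2:**
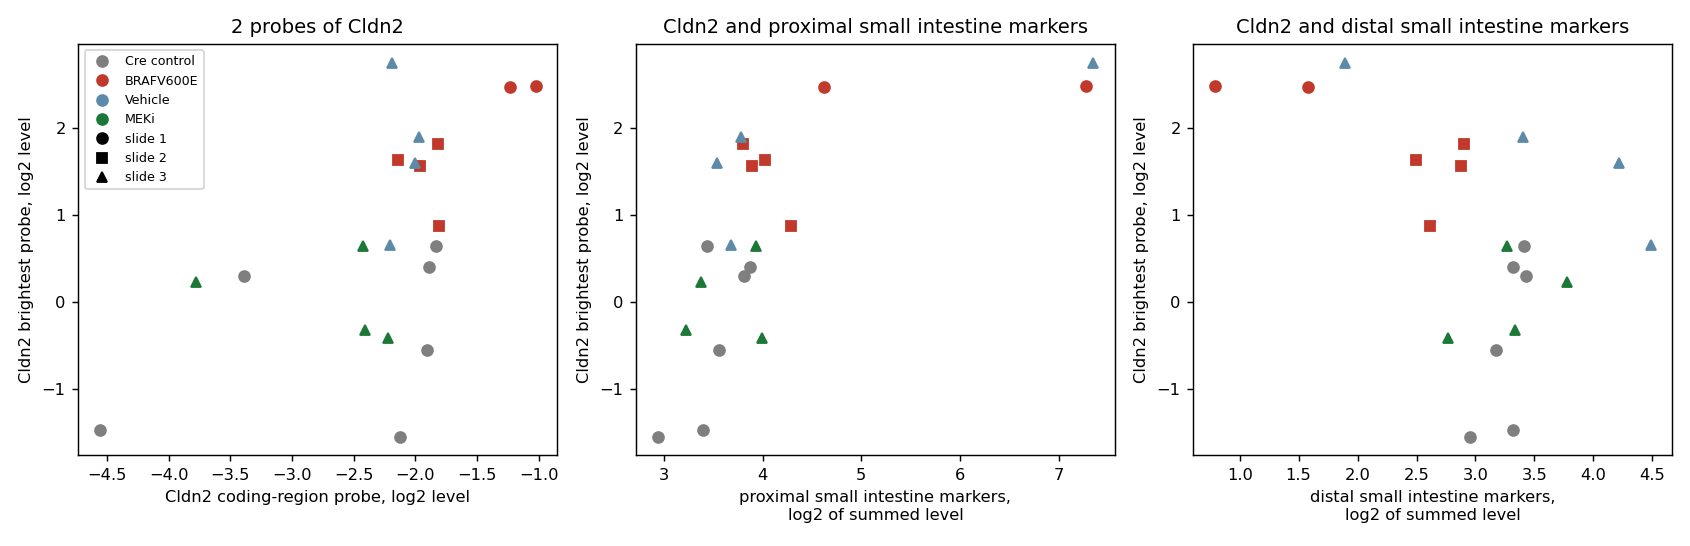
Log2 level of the brightest Cldn2 probe (y axis) against the log2 level of the coding-region Cldn2 probe (left) and the log2 summed level of proximal (middle) and distal (right) small intestine markers (x axes), 1 point per array, coloured by group and shaped by slide. BRAFV600E replicate 2 and Vehicle replicate 2 lie far right in the middle panel, and in the right panel all 6 BRAFV600E arrays (1.73 to 7.47 before log2) lie left of all Cre control arrays (7.73 to 10.8).

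The second Cldn2 probe, printed above, gave a smaller difference that was not called. It ran from -4.55 to -1.83 in Cre control tissue (median -2.02) and from -2.14 to -1.02 in BRAFV600E tissue (median -1.81), so the groups overlapped. The difference was 0.95 on the log2 scale (95% interval -0.01 to 1.91), with a limma adjusted p of 0.188 over 38496 probes. Averaged over both probes, Cldn2 was still called, at 1.56 on the log2 scale (limma adjusted p = 0.0207). Over the 20 arrays the levels of both probes correlated with r = 0.57, a description over arrays that share groups and slides. That value holds the group difference, and for deviations from the group mean r was 0.32.

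Cldn4, a sealing claudin, was the other member called. Its level ran from -3.09 to -1.37 in Cre control tissue (median -1.89) and from -1.72 to 0.09 in BRAFV600E tissue (median -0.50). BRAFV600E replicate 1, at -1.72, was the only mutant array within the Cre control range, and the other 5 lay above it. Cldn4 rose 2.91-fold, a log2 difference of 1.54 (SE 0.33, limma adjusted p = 0.0122). Blocking on slide gave 1.27 (limma adjusted p = 0.120), and the call was lost. For the BRAFV600E arrays of slide 2 alone against all controls, when slide and group cannot be told apart, it was 1.68 (limma adjusted p = 0.00971).

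Cldn23 and Ocln lay between the called members and the rest. Cldn23 ran from -1.03 to 0.43 in Cre control tissue and from 0.09 to 0.86 in BRAFV600E tissue, with medians of -0.23 and 0.57. The difference of 0.81 (log2, SE 0.26) just missed the threshold (limma adjusted p = 0.0573), and it was called in 9 of 28 other settings. Ocln ran from -1.19 to 0.02 and from -0.52 to 0.56, a difference of 0.54 on the log2 scale (SE 0.26) with a limma adjusted p of 0.179. Both genes had overlapping groups, with 4 of the 6 mutant arrays above all controls for Cldn23 and 3 of 6 for Ocln. Cre control replicates 2, 3 and 5, with the spike-in slope out of range, were the lowest controls for both genes.

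Cldn7, Cldn15 and Cldn3, claudins of the absorptive epithelium, were not called, and their groups overlapped. Cldn7 ran from 6.24 to 6.96 in Cre control and from 6.36 to 7.22 in BRAFV600E tissue, a log2 fold change of 0.09 (95% interval -0.32 to 0.49). Cldn15, the other cation channel, ran from 5.26 to 5.85 and from 4.97 to 6.01, a log2 fold change of 0.03 (95% interval -0.37 to 0.43). Cldn3 ran from 5.03 to 5.81 and from 5.29 to 6.21, a log2 fold change of 0.37 (95% interval -0.05 to 0.79). Limma adjusted p values were 0.801, 0.930 and 0.215. Blocking on slide gave -0.34 for Cldn7, -0.38 for Cldn15 and -0.015 for Cldn3, none of them called. The blocked values rest on BRAFV600E replicates 1 and 2 alone, so the slide and those mice cannot be told apart. BRAFV600E replicates 1 and 2 had the lowest levels of their group for all 3 genes. The log2 ratio of Cldn2 to Cldn15 signal within an array ran from -7.12 to -4.90 in Cre control and from -4.94 to -2.50 in BRAFV600E tissue, with medians of -5.78 and -3.87. The ratio shows unequal change of the pair and not their relative amounts.

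The second Cldn7 probe (chr11:69778772-69778831, mm9) marks the 5′ part of the gene. Its sequence began 151 bases before the second of 2 RefSeq starts of Cldn7, which lie 642 bases apart, so transcripts from the second start do not hold it. It was called neither in BRAFV600E against Cre control (log2 0.19, SE 0.29, limma adjusted p = 0.717) nor in MEKi against Vehicle (0.20, SE 0.27, limma adjusted p = 0.833). Levels of both Cldn7 probes were uncorrelated over the 20 arrays (r = -0.00017).

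Cldn1, Cldn18 and Cldn8 showed no called difference. Cldn1 ran from -4.20 to -3.44 in Cre control and from -4.40 to -3.31 in BRAFV600E tissue, a log2 fold change of -0.08 (95% interval -0.50 to 0.34, limma adjusted p = 0.817). Cldn18, the gastric and lung claudin, ran from -1.72 to 0.58 and from -1.70 to -0.57, a log2 fold change of -0.58 (95% interval -1.39 to 0.23, limma adjusted p = 0.323). BRAFV600E replicate 2, the array with the stomach markers, had a Cldn18 level of -0.67, inside the range of the other mutant arrays. Cldn8 was not well above background on any of the 20 arrays, and no fold is given.

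**Figure D3:**
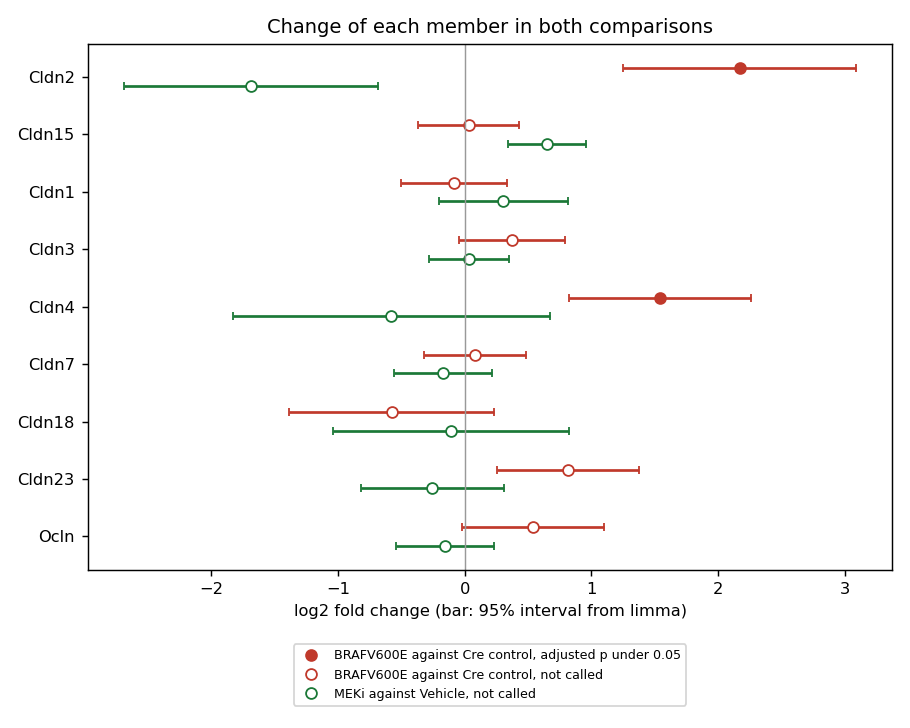
Log2 fold change (x axis) of the 9 tested members (y axis) in BRAFV600E against Cre control (red) and MEKi against Vehicle (green), with 95% intervals from limma. Filled points are called. Cldn2 lies at 2.17 and -1.68, and Cldn15 at 0.03 and 0.65.

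Under the MEK inhibitor no member was called in either direction, and the largest differences were those of Cldn2 and Cldn15. Of 19231 genes tested, 1.09% were called higher and 0.884% lower by limma. By unadjusted limma p, 2 of the 9 members lay under 0.05, Cldn15 and Cldn2, ranked 414 and 836 of all genes. The share of all genes under 0.05 is not given, so this count is not read as a result about the members. The median log2 fold change over the 9 members was -0.16, against 0.04 over all genes tested. The groups did not overlap for 2 of the 9 members, Cldn2 and Cldn15, which was so for 12.2% of all genes. These arrays share no samples with the first comparison.

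Cldn2 lay at 0.65, 2.75, 1.59 and 1.89 in Vehicle replicates 1 to 4 and at -0.32, 0.23, 0.64 and -0.41 in MEKi replicates 1 to 4. All 4 inhibitor arrays lay below all 4 Vehicle arrays, though MEKi replicate 3 all but met Vehicle replicate 1. The difference of -1.68 on the log2 scale (95% interval -2.69 to -0.68) did not pass, with a limma adjusted p of 0.106 (0.0527 to 0.379 over the other settings). Vehicle replicate 2, the array with pancreas and proximal gut markers, was the highest, and without it the value was -1.34 (limma adjusted p = 0.124). With the Y-linked signal of each mouse as a covariate it was -1.10 (limma adjusted p = 0.379). The second Cldn2 probe gave -0.62 (SE 0.33, limma adjusted p = 0.486).

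Cldn15 lay at 5.77, 5.73, 5.74 and 5.39 in Vehicle tissue and at 6.23, 6.23, 6.49 and 6.29 in MEKi tissue. The inhibitor arrays were all above the Vehicle arrays and close to each other. The difference of 0.65 (log2, SE 0.13, 1.57-fold) had a limma adjusted p of 0.0535, just over the threshold, and it was called in 5 of 19 other settings. Its adjusted p was 0.0691 to 0.144 when single arrays were left out and 0.223 with the Y-linked covariate, and it was highest without scaling, where the SE was 0.286. The log2 ratio of Cldn2 to Cldn15 signal ran from -5.12 to -2.99 in Vehicle and from -6.70 to -5.85 in MEKi tissue. That its groups do not overlap follows from the levels of both genes and is no further result.

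Cldn4, called in the first comparison, lay at -0.76, -1.19, -0.09 and 0.05 in Vehicle tissue and at -2.06, 0.52, -1.36 and -1.39 in MEKi tissue. MEKi replicate 2 was the highest of all 8 arrays and the other 3 MEKi arrays lay below all Vehicle arrays. The difference was -0.58 on the log2 scale (95% interval -1.83 to 0.68, limma adjusted p = 0.678). Without MEKi replicate 2 it was -1.11 (limma adjusted p = 0.153), and without MEKi replicate 1 it was -0.25 (limma adjusted p = 0.920), so single arrays set its size. MEKi replicate 2 also had the lowest sum of 5 B lymphoid markers, 15.7 against 58.5 to 127 on the other 7 arrays.

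The remaining members were not called under the inhibitor, and their 95% intervals bound the difference. Log2 fold changes were 0.31 for Cldn1 (-0.20 to 0.81), 0.03 for Cldn3 (-0.28 to 0.35) and -0.17 for Cldn7 (-0.56 to 0.21). They were -0.11 for Cldn18 (-1.04 to 0.82), -0.25 for Cldn23 (-0.82 to 0.31) and -0.16 for Ocln (-0.54 to 0.23). Limma adjusted p values of these 6 genes lay between 0.562 and 0.936. Cldn3 and Cldn7 had levels of 5.76 to 6.15 and 6.67 to 7.32 over the 8 arrays. Cldn23 ran from 0.57 to 1.34 in Vehicle and from 0.46 to 1.35 in MEKi tissue, and Ocln from 0.07 to 0.63 and from -0.01 to 0.45.

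**Figure D4:**
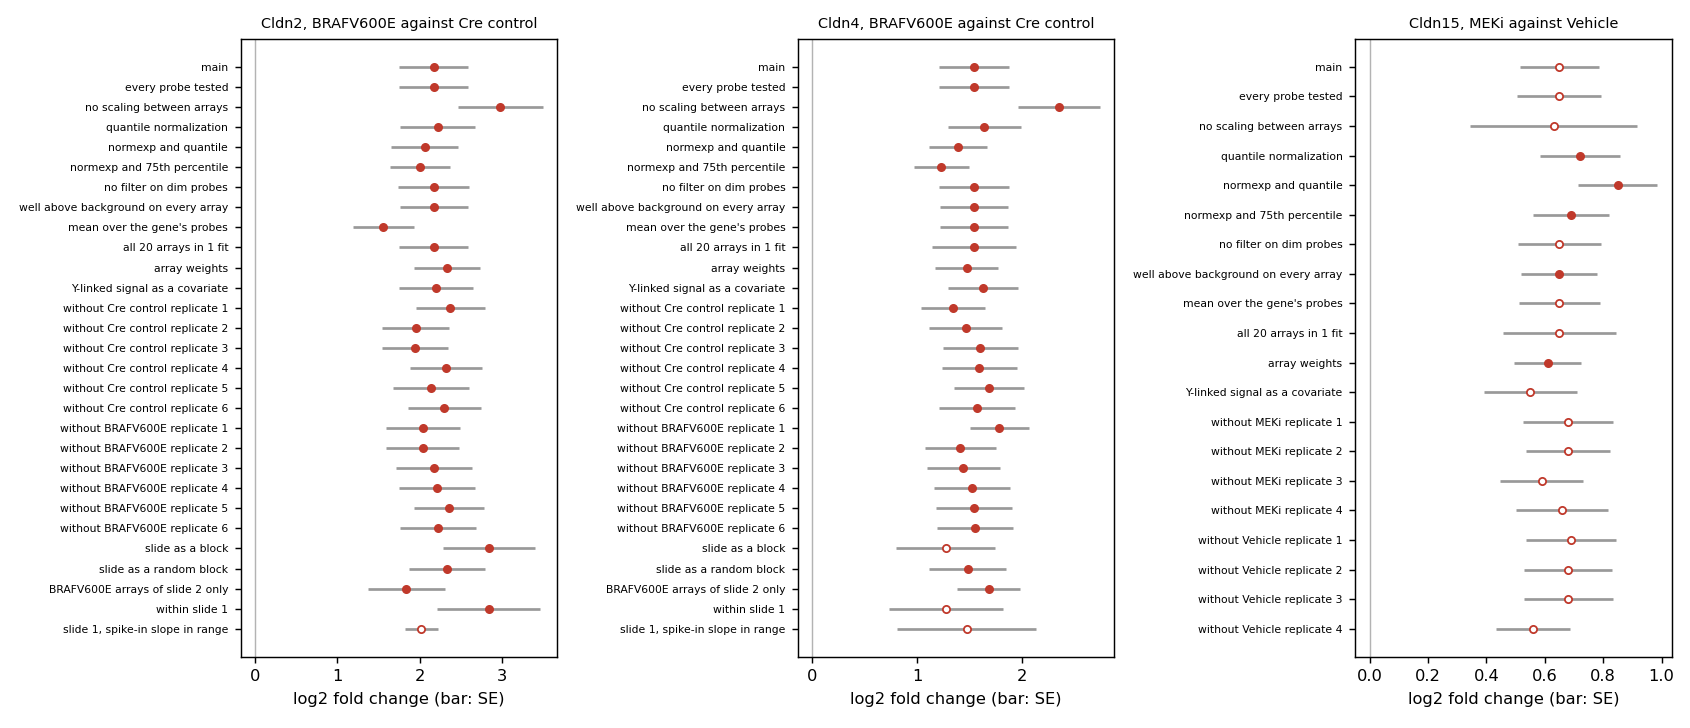
Log2 fold change (x axis, bar SE) under each processing setting (y axis) for Cldn2 and Cldn4 in BRAFV600E against Cre control and Cldn15 in MEKi against Vehicle. Filled points have a limma adjusted p under 0.05. Cldn2 stays between 1.56 and 2.98 and loses its call in 1 setting, slide 1 arrays with the spike-in slope in range. Cldn15 crosses the threshold in 5 of 19 settings. Cldn4 loses its call in 3 settings: slide as a block, slide 1 alone, and slide 1 arrays with the spike-in slope in range. With slide as a random block Cldn4 keeps its call.

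Other junction genes were read from 5 lists of the pathway. Of 16 adherens junction and desmosome genes, 7 were called higher and none lower by limma, 15 had a fold change above 0, and the median was 0.55 against -0.02 over all genes, of which 6.18% were called higher. Leaving out BRAFV600E replicate 4, Cre control replicate 3 or Cre control replicate 5 lowered the 7 to 4. They included Ctnnb1 (beta-catenin, log2 difference 0.82, limma adjusted p = 0.0267), Cdh1 (E-cadherin, 0.61, adjusted p = 0.0178) and Vcl (vinculin, 0.60, adjusted p = 0.0315). The desmosomal genes Pkp3 (0.72) and Dsg2 (0.69) both had a limma adjusted p of 0.0134. Blocking on slide left 1 of these 16 genes called, Ctnnb1 (limma adjusted p = 0.0461), and slide 1 alone left none by limma.

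Of 17 scaffold and polarity genes, 3 were called higher and none lower by limma, with a median of 0.32. That count was 1 without BRAFV600E replicate 2, 3 or 4 or Cre control replicate 3 or 5, and 5 without Cre control replicate 1. They were Pard6b, a polarity protein of the apical complex (1.25 on the log2 scale, adjusted p = 0.00667), Tjp1, which encodes ZO-1 (0.57, adjusted p = 0.0417), and Prkci, an atypical protein kinase C of the same complex (0.42, adjusted p = 0.0310). Pard6b was also called when slide was blocked, at 1.62 (limma adjusted p = 0.0107), and Tjp1 and Prkci were not. Of 11 other tight junction membrane genes, Ildr1, a protein of junctions where 3 cells meet, was called higher (1.37, adjusted p = 0.0392), also when slide was blocked (2.22, limma adjusted p = 0.0141), and none was called lower. Of the fits without a single array, the Ildr1 call was kept only without BRAFV600E replicate 2, 3 or 6 or Cre control replicate 1, and the adjusted p without Cre control replicate 3 was 0.0789. Without BRAFV600E replicate 2 the log2 difference of Ildr1 was 1.04. Other settings also lost the call, among them slide 1 alone (limma adjusted p = 0.0568). Normexp with the 75th percentile gave 0.42 (limma adjusted p = 0.247) and normexp with quantile 0.76 (0.0543).

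Among partners and processing enzymes of claudins, 3 of 9 tested genes were called higher and 1 lower. Higher were the tetraspanins Tspan8 (log2 difference 1.11, limma adjusted p = 0.000945) and Cd9 (0.63, adjusted p = 0.0454) and the membrane protease Prss8 (0.81, adjusted p = 0.0163). Lower was Mmp7, a protease of Paneth cells (-2.10, limma adjusted p = 0.00630). In the list of 5 Paneth cell markers, which holds Mmp7 itself, 4 were called lower. Of 11 tested other claudins none was called higher and Cldn24 was called lower (-2.14, limma adjusted p = 0.0420), measured by a probe that the array names Cldn24 from a cDNA and not from the RefSeq transcript. Of the fits without a single array, the Cldn24 call was kept only without BRAFV600E replicate 5 or Cre control replicate 4, and it was lost when slide was blocked (adjusted p = 0.0545).

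Under the inhibitor 1 gene of these 5 lists was called. Cldn14, a claudin outside the list of members, was lower, from -2.65 to -2.35 in Vehicle tissue against -3.97 to -3.58 in MEKi tissue (log2 -1.15, SE 0.14, limma adjusted p = 0.0111). In BRAFV600E against Cre control tissue its log2 difference was 1.02 (SE 0.37, limma adjusted p = 0.0888), which did not pass. The call under the inhibitor was lost without scaling (adjusted p = 0.0697), with all 20 arrays in 1 fit (adjusted p = 0.130) and with the Y-linked covariate (adjusted p = 0.0696). Medians of the 5 lists lay between -0.30 and 0.10, against 0.04 over all genes, and 12 of the 16 adhesion genes had a fold change below 0.

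**Figure D5:**
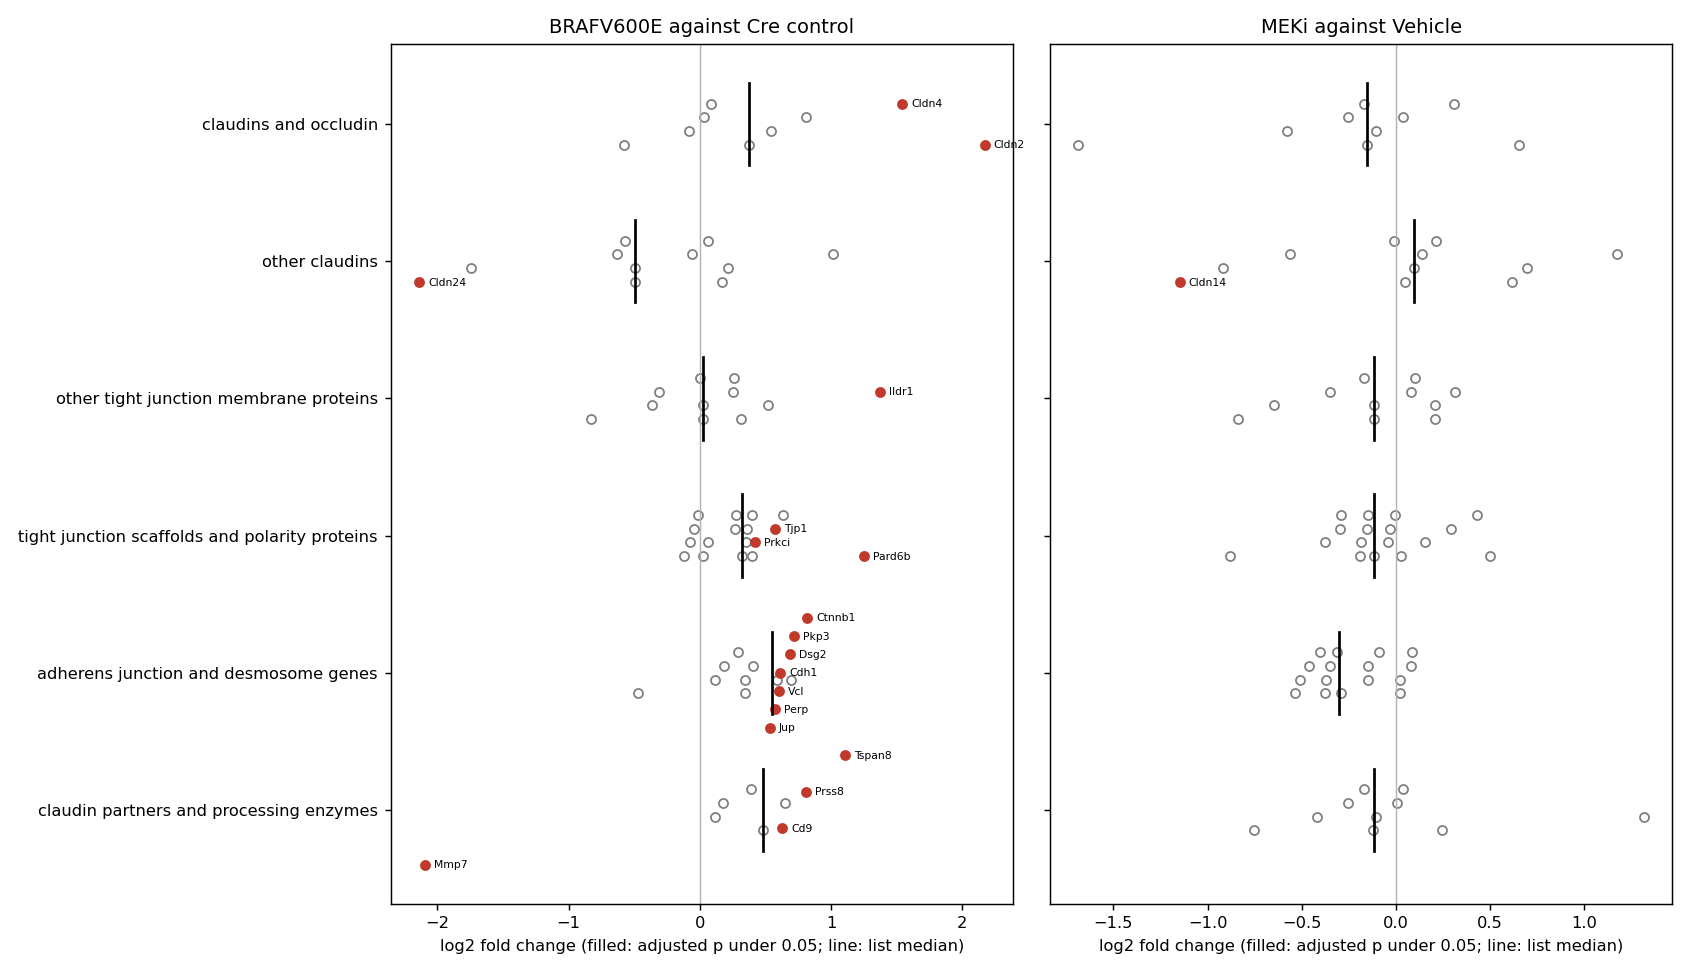
Log2 fold change (x axis) of the tested genes in the members' list and 5 other junction lists (y axis) in both comparisons. Each point is a gene, filled where limma's adjusted p was under 0.05, and the line is the list median. Called genes of the 5 other lists number 16 on the left and 1, Cldn14, on the right.

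Markers of other cells moved as well, and their part in the members' results was not tested. Summed Paneth cell markers ran from 833 to 1499 in Cre control and from 235 to 785 in BRAFV600E tissue, without overlap. The summed enterocyte markers ran from 1021 to 1764 and from 675 to 1369, and 5 of the 7 genes had a fold change below 0 (median log2 -0.42). Alpi, intestinal alkaline phosphatase, went the other way and was the only one called (log2 difference 1.84, limma adjusted p = 0.00225). Summed epithelial markers overlapped, with 495 to 768 against 544 to 755, and none of the 7 genes was called. Summed smooth muscle markers were 58.2 to 81.1 against 54.9 to 113, and 2 of 5, Des and Actg2, were called higher. Summed T lymphoid markers overlapped, with medians of 76.2 in Cre control and 77.2 in BRAFV600E tissue. Of these 4 genes 2, Cd3g and Cd8a, were called lower, and 1 had a fold change above 0. Gata4, a proximal gut marker, was called higher. Under the inhibitor, summed epithelial markers were 679 to 962 in Vehicle and 650 to 857 in MEKi tissue, and none of the markers outside the MAPK list was called.

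Among 18357 other genes tested in both comparisons and measured on every array, those most like Cldn2 were Xrcc5, Nipal2 and Ahcyl2. The measure was the lower of the Pearson correlations over the 12 and over the 8 arrays, which was 0.95, 0.95 and 0.94. For Cldn4 they included Neat1 (0.88) and 2310011J03Rik (0.84). Nipal2, which encodes a predicted magnesium transporter, had log2 fold changes of 2.32 (limma adjusted p = 0.000748) and -1.44 (adjusted p = 0.0656), beside 2.17 and -1.68 for Cldn2. These correlations hold the group difference and the slide, and they are a description with no test.

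Among the members themselves, deviations from the group mean over the 20 arrays gave 36 pairs with a median r of -0.06. The highest were Cldn3 with Cldn15 (0.66), Cldn7 with Cldn15 (0.65) and Cldn23 with Ocln (0.64). The lowest was Cldn2 with Cldn7 (-0.68), so arrays with more Cldn2 than their group tended to have less Cldn7. The BRAFV600E arrays lie on 2 slides, replicates 1 and 2 on slide 1 and the others on slide 2, so deviations in that group also hold the slide. Replicates 1 and 2 were the highest of their group for Cldn2 and the lowest for Cldn3, Cldn7 and Cldn15. The values are given without a test.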

How the data were processed

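RNA of intestinal tissue was labelled with Cy3 and hybridised to 20 Agilent SurePrint G3 Mouse arrays. Per the file headers and the submitters' processing notes, the authors extracted each array with Agilent Feature Extraction 10.5.1.1, which subtracted background and corrected spatial trends. The deposited intensity is a processed signal per spot on a linear scale, not scaled between arrays, and the deposited table of the whole series held the same values. The deposited files further hold marks of 0 or 1 for every spot, which served here as filters for outlying spots and for spots well above background.

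Log2 signals were centred on each array's 75th percentile. Probes were named through RefSeq (GRCm38.p6), probe coordinates are those of the files (mm9), and each gene was represented by its brightest probe (mean over 20 arrays). A gene entered the test if that probe exceeded background clearly on 6 or more of 12 arrays, or 4 or more of 8. The 2 comparisons were fitted separately with limma 3.58.1 (R 4.3.3, lmFit and eBayes, two-sided, Benjamini-Hochberg over all genes tested, no covariates). The study's methods name limma, and the settings were chosen here. Every adjusted p is from that fit or, for second probes, from a fit over all probes, unless the text names another setting beside it. The fit was tested on simulated data: of genes given a log2 change of 1 or 2, it recovered 48% and 88% with the means of BRAFV600E against Cre control (19037 genes) and 43% and 89% with those of MEKi against Vehicle (19231 genes). Alternatives were other scalings, background corrections, filters, probe rules, sample sets, covariates and slide terms. The BRAFV600E arrays of slide 2 against all controls were added after seeing the data.

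The members and the lists of junction genes and markers were chosen with earlier results of these data known. The text names every member with every probe, called genes of the lists (up to 5 a list and comparison by size) and, for each called member, up to 3 genes most like it. Slides were read from the names of the scanner files, and the treatment text of the labels, which matches none of the groups, was not used. The labels give each array its own title but do not state separate mice, so p-values measure the spread between these arrays. Some genes that these rules would name are not reported here.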

Additional observations from a re-analysis of the deposited data

Results flagged for a closer look

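In 3 of 48 groups of arrays (12 probes in 4 groups), the gap between an extreme array and its nearest neighbour took up more of the group's range than Dixon's 95% limit allows, where chance gives about 1 in 20 groups. Vehicle replicate 4 was low for Cldn15, at 5.39 on the log2 scale, and its gap to the next array was 0.892 of the range. Without that array the Cldn15 log2 fold change of MEKi against Vehicle was 0.56 (limma adjusted p = 0.114), against 0.65 with it. MEKi replicate 2 was low for the second Cldn2 probe, at -3.78 (0.866 of the range), while the brightest Cldn2 probe on that array, at 0.23, lay inside its group. MEKi replicate 3 was low for the second Cldn7 probe, at -2.84 (0.923 of the range).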

How the results depend on the processing

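No paired analysis was possible because the replicate numbers follow the order of the samples and the labels pair no mice. For BRAFV600E against Cre control, 2 members were called higher; the count was 7 without scaling between arrays, 1 with slide as a block, 1 within slide 1 and 0 on the slide 1 arrays whose spike-in slope was in range, and 2 to 3 when single arrays were left out. Without scaling, the median of all genes shifted by 0.81 on the log2 scale, so those 7 are read relative to that shift. None was called lower by limma in any setting run. For MEKi against Vehicle, 1 member, Cldn15, was called higher after quantile normalization, after both normexp corrections, with the filter on every array and with array weights, and 0 otherwise and in every fit without a single array. The causes were not tested. Values of uncalled members that changed sign are given as log2 fold changes. For BRAFV600E against Cre control, quantile normalization gave -0.056 for Cldn15 and 0.073 for Cldn1, normexp with quantile -0.33 and normexp with the 75th percentile -0.014 for Cldn15, and no scaling 0.73 for Cldn1 and 0.23 for Cldn18. Both slide as a block and slide 1 alone gave -0.38 for Cldn15, 0.10 for Cldn1, -0.015 for Cldn3 and -0.34 for Cldn7. Slide as a random block gave -0.067 for Cldn15 and -0.018 for Cldn7. Arrays of slide 1 with the spike-in slope in range gave -0.31 for Cldn15, 0.19 for Cldn1, -0.19 for Cldn3, -0.17 for Cldn7 and 0.046 for Cldn18. Leaving out single arrays spanned -0.061 to 0.15 for Cldn15, -0.21 to 0.0095 for Cldn1 and -0.010 to 0.17 for Cldn7. For MEKi against Vehicle, normexp with the 75th percentile gave -0.022 for Cldn1, array weights -0.0039 for Cldn3 and 0.074 for Cldn18, the Y-linked covariate -0.12 for Cldn3 and the mean over probes 0.013 for Cldn7. Leaving out single arrays there spanned -0.029 to 0.10 for Cldn3 and -0.39 to 0.15 for Cldn18. Over all genes, 1177 were called higher and 1192 lower in BRAFV600E tissue, against 9155 and 177 without scaling and 1589 and 3053 after normexp with the 75th percentile. All genes called numbered 2369 there, and between 29 (slide 1 arrays with the slope in range) and 9332 (no scaling) in other settings. In MEKi against Vehicle they numbered 380, and between 53 (Y-linked covariate) and 1209 (array weights).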
